A study of Mus musculus with 16 samples.

Results

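The Hox clusters are 4 stretches of the mouse genome that hold the Hox genes, and they were followed here in maps of H3K27ac, a histone mark in which lysine 27 of H3 carries an acetyl group and that is found at active promoters and enhancers. The members were chosen by position alone, as every peak that overlapped 1 of 4 windows on the mm9 build. These were HoxA at chr6:52095000-52225000, HoxB at chr11:96045000-96240000, HoxC at chr15:102740000-102880000 and HoxD at chr2:74480000-74620000. The windows held 289 peaks of the 369142 that the authors deposited over all libraries, and 38 Hox genes were listed for them, 10 each in HoxA and HoxB and 9 each in HoxC and HoxD.

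All cells came from the small intestine of mice of a mixed C57BL/6 CD1 strain, in 4 groups of 2 libraries. The E12.5 and E14.5 groups were epithelium of embryos of those days, sorted as living cells with the epithelial surface protein EpCAM and without the endothelial marker CD31 or the leukocyte marker CD45. The adult groups came from P60 males that carried Lgr5EGFP-Cre-ERT, an allele that places green fluorescent protein under the stem cell gene Lgr5. Intestinal stem cells (ISC) were sorted from crypts for high fluorescence, and enterocytes, the absorptive cells, were sorted from villi for EpCAM without CD31 or CD45. For the embryos the labels state no sex. The series calls the 2 libraries of a group biological duplicates, but the labels do not say how many animals went into each, so the spread given here is the spread between libraries.

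Hox genes encode homeodomain transcription factors that give cells their position along the body axis. Within a cluster the genes lie in the order in which they are used along that axis, so that groups of low number act toward the head and group 13 acts in the hindmost structures. In the gut they take part in regional patterning, and the intestine forms from endoderm and mesoderm in which many of them are used.

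By the gene order of the RefSeq table, HoxA ran from Hoxa2 at the low coordinates to Hoxa13 at the high ones. HoxB, HoxC and HoxD ran the other way, from Hoxb13, Hoxc13 and Hoxd13 at the low end to Hoxb1, Hoxc4 and Hoxd1 at the high end. Between those ends the listed genes were Hoxa3 to Hoxa7 and Hoxa9 to Hoxa11 in HoxA, and Hoxb9 to Hoxb2 in HoxB. In HoxC they were Hoxc12 to Hoxc8, Hoxc6 and Hoxc5, and in HoxD Hoxd12 to Hoxd8, Hoxd4 and Hoxd3. That table is on GRCm38.p6 and the peaks are on mm9, so it gave the order only, and every value below belongs to a position and not to a gene. For the same reason the cell type labels were not checked against peaks at marker genes.

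The promoters of the listed genes at the 2 ends of HoxA and HoxD are shown because the peaks described below lay toward one end of each cluster. Each is the 250 bases before the gene's start, from RefSeq on GRCm38.p6, written 5′ to 3′ on the gene's strand with every CG pair in capitals. Hoxa2 is at chr6:52164832-52165081 and Hoxa13 at chr6:52260881-52261130, both on the minus strand. Hoxd1 is at chr2:74762730-74762979 and Hoxd13 at chr2:74667975-74668224, both on the plus strand.
Hoxa2: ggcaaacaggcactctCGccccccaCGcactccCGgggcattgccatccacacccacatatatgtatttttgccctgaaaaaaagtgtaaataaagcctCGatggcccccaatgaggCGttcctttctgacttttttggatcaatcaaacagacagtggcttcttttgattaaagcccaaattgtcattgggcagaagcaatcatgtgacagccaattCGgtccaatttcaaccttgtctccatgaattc
Hoxa13: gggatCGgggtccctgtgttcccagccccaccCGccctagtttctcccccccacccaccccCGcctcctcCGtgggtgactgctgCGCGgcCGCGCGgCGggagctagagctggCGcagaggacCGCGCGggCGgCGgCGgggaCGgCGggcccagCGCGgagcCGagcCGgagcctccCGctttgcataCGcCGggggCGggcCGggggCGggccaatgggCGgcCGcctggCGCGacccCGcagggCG
Hoxd1: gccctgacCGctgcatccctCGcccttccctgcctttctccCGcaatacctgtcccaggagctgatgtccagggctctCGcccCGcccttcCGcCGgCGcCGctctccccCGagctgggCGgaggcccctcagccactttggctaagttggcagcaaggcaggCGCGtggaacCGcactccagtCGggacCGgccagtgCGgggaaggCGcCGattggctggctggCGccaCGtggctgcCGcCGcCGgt
Hoxd13: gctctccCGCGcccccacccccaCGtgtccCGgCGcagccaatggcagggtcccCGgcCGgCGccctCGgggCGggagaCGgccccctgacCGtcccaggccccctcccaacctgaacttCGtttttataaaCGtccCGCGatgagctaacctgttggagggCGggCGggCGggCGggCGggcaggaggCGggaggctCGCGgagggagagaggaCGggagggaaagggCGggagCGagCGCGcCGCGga
The Hoxa2 promoter held 6 CG pairs and the Hoxa13 promoter 35. In HoxD, Hoxd1 held 24 and Hoxd13 held 31, so the promoters at the group 13 end were rich in CG pairs in both clusters.

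The promoter table held 24 promoters of 22 of the 38 listed genes. They held 2 to 35 CG pairs and had a median GC content of 58.6%, against 0 to 56 pairs and 52.4% over all 32851 promoters. At least 10 CG pairs were present in 15 of the 24 (62.5%), against 37.8% of all promoters. TTTATG, the core recognised by CDX-type homeodomain factors, was searched on both strands and was found in 5 of the 24 (20.8%), those of Hoxa7, Hoxb8, Hoxd3, Hoxd4 and 1 of 2 of Hoxd11. The share over all promoters was 10.8%. These letter matches describe the windows and do not show binding.

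Tags per ChIP library numbered 34.6 to 54.6 M, and each deposited list held 35614 to 52510 peaks that covered 38.8 to 76.1 Mb. ISC replicate 2 covered the most (76.1 Mb, against 51.2 Mb in ISC replicate 1), and its peaks in HoxB stood apart from those of every other library. Results that rest on it are given with and without it. The lists hold no counts per region, so counting error has no interval here.

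Peaks covered less of the Hox clusters in 3 of the 4 adult libraries than in any embryonic library, and least in enterocytes. Over the 4 windows together, the covered length was 58.3 and 85.2 kb in the E12.5 pair, 40.7 and 25.5 kb in the E14.5 pair, 3.64 and 45.8 kb in the ISC pair, and 0.482 and 0.296 kb in enterocytes. ISC replicate 2 overlapped the embryonic range, and the other 3 adult libraries lay below it. Relative to all peaks of the library, the Hox windows took 1338 and 1421 bp per Mb at E12.5, 625 and 449 at E14.5, 71.0 and 602 in the ISC pair, and 12.4 and 7.62 in enterocytes. The order of the groups by their means was thus the same on both scales. In sorted bulk cells, fewer cells with the mark and less of the mark in each cell cannot be told apart.

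**Figure D1:**
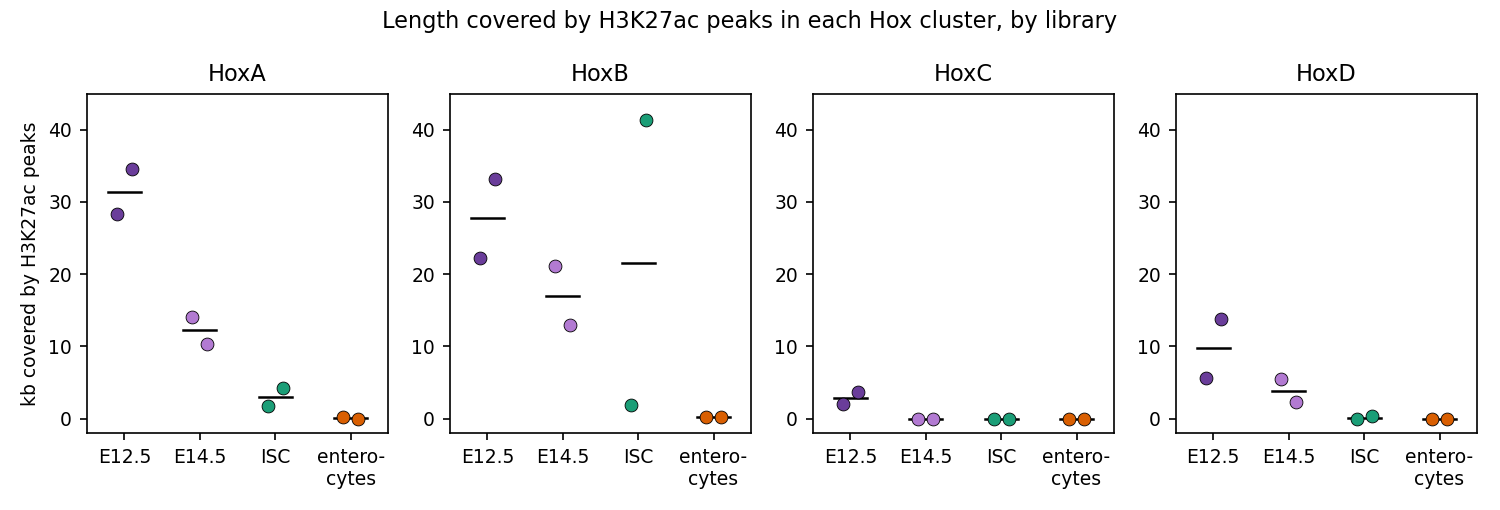
Length covered by H3K27ac peaks in each Hox window (kb, y axis) for the 8 libraries, with a point per library and a line at the group mean of 2. HoxA and HoxD stepped down from E12.5 to enterocytes, HoxC held peaks at E12.5 alone, and in HoxB ISC replicate 2 stood at 41.3 kb while ISC replicate 1 stood at 1.85 kb.

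HoxA had the most covered length of the 4 windows at E12.5, and each later group lay lower. It was covered over 28.3 and 34.5 kb in the E12.5 pair, 14.1 and 10.4 kb in the E14.5 pair, 1.79 and 4.21 kb in the ISC pair, and 0.226 and 0 kb in enterocytes. No 2 groups overlapped. The group means after E12.5 were 38.9% of the E12.5 mean at E14.5, 9.54% in ISC and 0.360% in enterocytes.

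HoxB was covered very unequally in the 2 ISC libraries. Its peaks covered 22.3 and 33.2 kb in the E12.5 pair, 21.1 and 12.9 kb in the E14.5 pair, 1.85 and 41.3 kb in the ISC pair, and 0.256 and 0.296 kb in enterocytes. The E14.5 libraries lay below both E12.5 libraries, the enterocytes lay below all others, and the ISC libraries fell on either side of every embryonic library. The 2 ISC libraries shared little of HoxB, with a Jaccard index (shared length over combined length) of 0.0448, against 0.556 for the E12.5 pair and 0.501 for the E14.5 pair.

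HoxC carried little of the mark. Peaks covered 2.02 and 3.77 kb in the E12.5 pair and none in the 6 later libraries. The 100 kb beyond its Hoxc4 end held more than the window itself, with 10.5 and 10.9 kb at E12.5, then 0.780 and 0.301 kb at E14.5 and none in the adult libraries. HoxC was the one window with less covered length at E12.5 than its flanks of 100 kb on each side.

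HoxD lay between HoxC and the larger clusters. It was covered over 5.69 and 13.7 kb in the E12.5 pair, 5.53 and 2.26 kb in the E14.5 pair, 0 and 0.319 kb in ISC, and 0 kb in both enterocyte libraries. Its flanks held 2.95 and 3.37 kb in the E12.5 pair, 2.83 and 3.01 kb in the E14.5 pair, 2.53 and 3.56 kb in the ISC pair, and 1.74 and 2.13 kb in enterocytes. In both adult groups the HoxD flanks therefore held more covered length than the window.

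The adult libraries were compared with the embryonic ones as 4 against 4, by a two-sided exact permutation test adjusted over the 4 clusters. The smallest p this design can give is 0.0286, and 2 against 2 cannot go below 0.333, so single steps between groups are given as values. HoxA covered 1.56 kb ± 1.94 (SD, n = 4) in adult and 21.8 kb ± 11.5 (SD, n = 4) in embryonic libraries, a difference of -20.3 kb (exact permutation p = 0.0286, adjusted p = 0.0571). HoxD covered 0.0798 kb ± 0.160 and 6.81 kb ± 4.89, a difference of -6.73 kb with the same exact p-values. The adult and embryonic libraries did not overlap in either cluster, and neither adjusted value passed 0.05. Without E12.5 replicate 2 the HoxD difference was -4.41 kb.

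In HoxB the adult mean was 10.9 kb ± 20.3 and the embryonic mean 22.4 kb ± 8.35, a difference of -11.4 kb (SD, n = 4 each, exact permutation p = 0.314, adjusted p = 0.419). Without ISC replicate 2 the difference was -21.6 kb, and the groups did not overlap (exact permutation p = 0.0571, the smallest that 4 against 3 allows). HoxC covered 1.45 kb ± 1.82 in embryonic libraries and 0 kb in adult ones (exact permutation p = 0.429). Its E14.5 and adult libraries were all at 0, and without E12.5 replicate 2 the difference was -0.672 kb. With the windows widened by 20 kb on each side, HoxC differed by -5.01 kb, HoxA by -21.0 kb and HoxD by -6.73 kb, and the adjusted exact permutation p of each was 0.0381. The unadjusted exact permutation p of HoxA and HoxD stayed at 0.0286. Their adjusted value moved because HoxC reached the same p. Age, cell type, sort and the Lgr5 allele differ together between the adult and embryonic groups and cannot be told apart.

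The peaks kept to one part of each cluster. The HoxA peaks of all libraries lay between 52102175 and 52171745, and the last 53.3 kb of the window, at the Hoxa13 end, held none. In HoxB the embryonic peaks lay between 96138750 and 96234527, toward Hoxb1. The HoxC peaks lay between 102790000 and 102873210 and the HoxD peaks between 74549324 and 74601384. In the embryonic libraries 0.638 to 1.80% of the covered length lay on the group 13 side of the windows' midpoints. That share was 0 in ISC replicate 1 and 38.1% in ISC replicate 2, all of it in HoxB. In enterocytes it was 53.1% and 100%, of 0.482 and 0.296 kb in all.

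**Figure D2:**
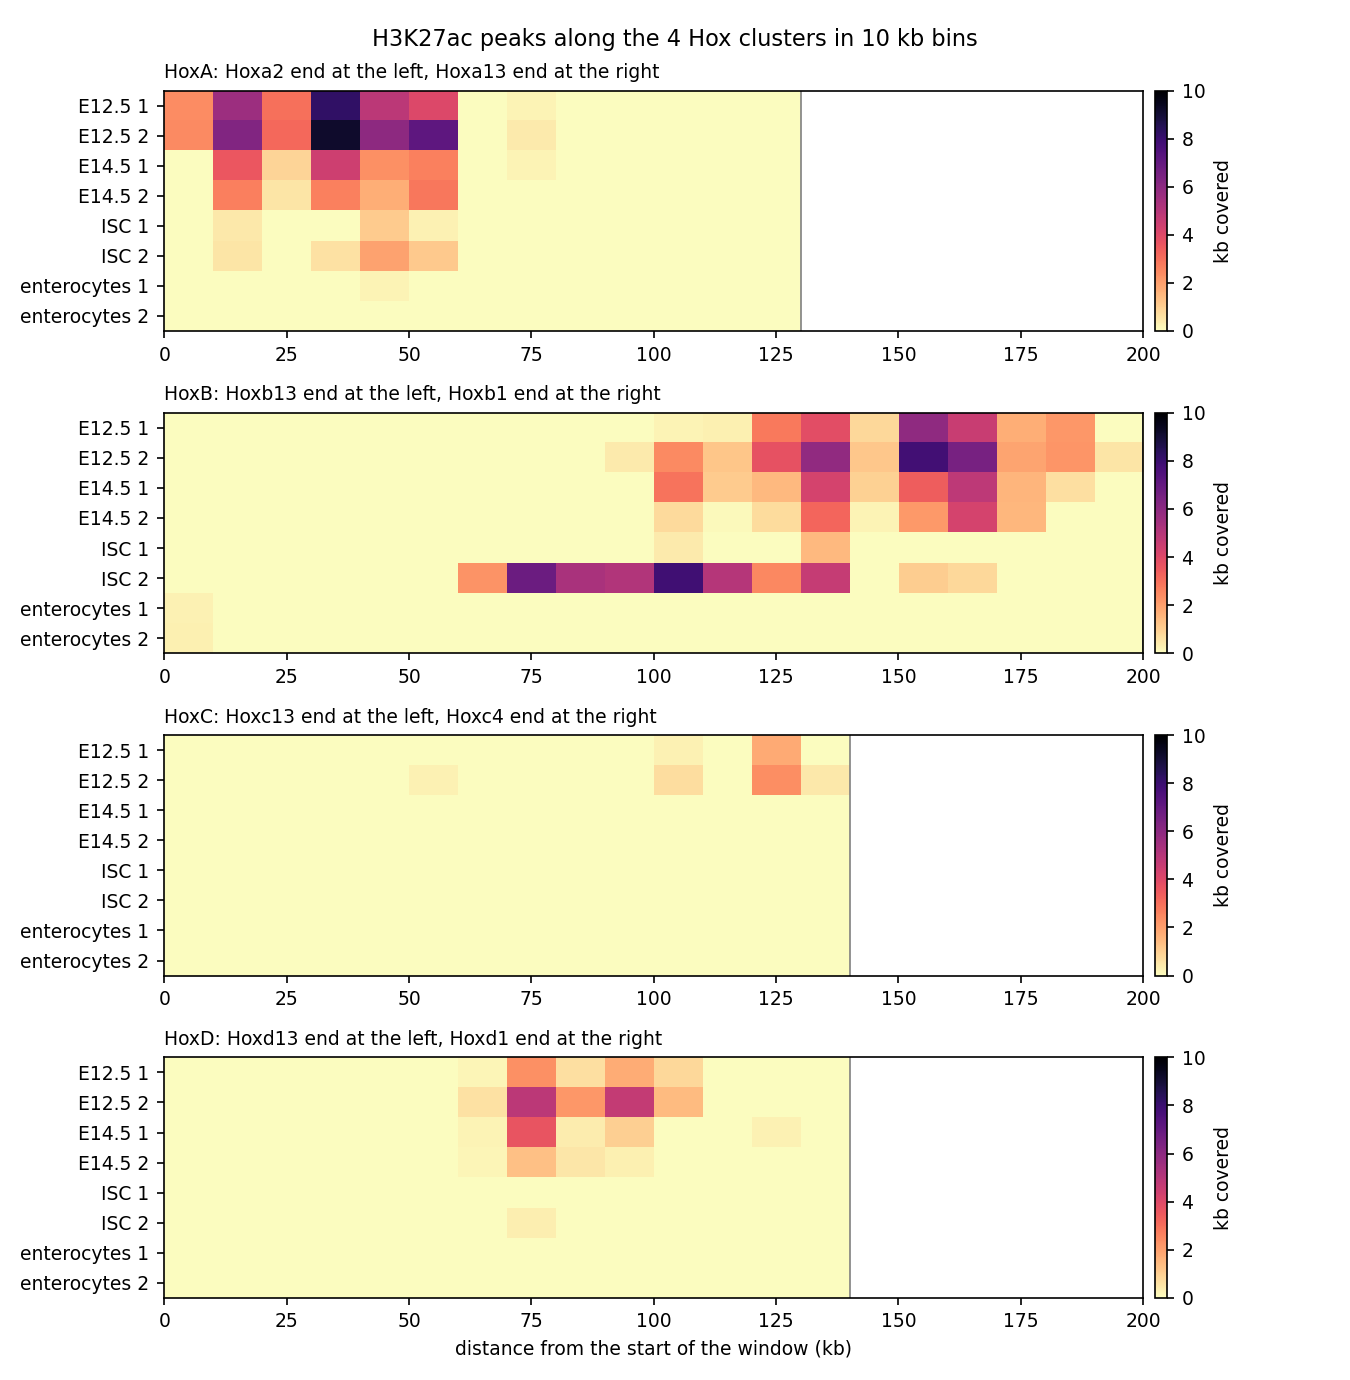
Covered length per 10 kb bin (colour, 0 to 10 kb) along the 4 windows (x axis, kb from the window start) for the 8 libraries (rows), with the genes at the window ends named in each panel title and the last HoxB bin running 5 kb past its window. Embryonic libraries were covered in the part toward Hoxa2, Hoxb1, Hoxc4 and Hoxd1, and ISC replicate 2 alone had peaks in the HoxB bins that start 60, 70 and 80 kb from the window start.

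The windows were divided into 61 bins of 10 kb. Of these, 28 had no peak in any library and 8 had a peak in 1 library, so 25 were tested, 7 in HoxA, 11 in HoxB, 2 in HoxC and 5 in HoxD. The last HoxB bin runs 5 kb past the window, and its 1 peak, of E12.5 replicate 2, lies outside it. The covered length was compared with limma on log2(covered bp + 500), in 1 fit of the 4 group means over the 41727 bins of the genome with a peak in at least 2 libraries. A bin was called at a Benjamini-Hochberg adjusted p under 0.05. A bin that passed the filter only through the group in which it was high had to differ, so the counts below describe the tested bins and not the whole windows. There were 5 bins with peaks in 1 group alone, 4 in E12.5 and 1 in enterocytes, and for these the values are given with no p. No p is given either where fewer than 2 libraries outside the higher side of a comparison had a peak in the bin. The steps share libraries, so they are not independent of each other. Log2 changes are differences of log2(covered bp + 500) and understate the change of bins near 0.

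Between E12.5 and E14.5, 8 of the 25 tested bins (32%) lost covered length and none gained it. Over all bins tested, 6.5% lost and 11.8% gained. At an unadjusted p under 0.05, 10 Hox bins lost and 0 gained by limma, and the share over all bins at this mark was not computed. The median log2 change was -0.86 over the Hox bins and 0.05 over all bins. The calls were 4 in HoxA, 1 in HoxB, 2 in HoxC and 1 in HoxD, and 4 of the 8 were bins with peaks in E12.5 alone. The HoxB bin had a peak in 1 library outside E12.5, so it too passed the filter only with E12.5. Without E12.5 replicate 1 the count was 3 of 21 (2.26% of all bins lost). Without E12.5 replicate 2 it was 1 of 20 (1.36% of all bins), and without E14.5 replicate 2 it was 5 of 25 (2.85% of all bins).

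In HoxA the log2 change from E12.5 to E14.5 was below 0 in every tested bin, and 4 of the 7 were called. The called bins included chr6:52135001-52145000, with 4.86 and 5.96 kb in the E12.5 pair and 2.31 and 1.69 kb in the E14.5 pair. The 2 bins that changed most among the called ones lay toward the Hoxa2 end. The bin chr6:52095001-52105000 was covered over 2.39 and 2.43 kb in the E12.5 pair and 0 kb in all 6 later libraries. In chr6:52115001-52125000, peaks covered 2.98 and 3.15 kb in the E12.5 pair, 0.878 and 0.528 kb in the E14.5 pair and 0 kb in the adult libraries. Its log2 change from E12.5 to E14.5 was -1.58 (limma adjusted p = 0.00319), and the call was kept in 14 of 14 alternatives.

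The 2 tested bins of HoxC had no peak left at E14.5. In HoxC, chr15:102860001-102870000 held 1.76 and 2.35 kb in the E12.5 pair and 0 kb in the 6 later libraries. Another HoxC bin, chr15:102840001-102850000, held 0.254 and 0.702 kb in the E12.5 pair and 0 kb in the later libraries. Near the Hoxb1 end, chr11:96225001-96235000 held 2.16 and 2.19 kb in the E12.5 pair and 0.625 and 0 kb at E14.5 (log2 change -1.84). It had a peak in 1 library outside E12.5 and passed the filter only with E12.5, so no p is given. Its call was lost without either E12.5 library and without either enterocyte library. In HoxD, chr2:74580001-74590000 held 0.811 and 1.43 kb in the E12.5 pair and 0 kb in the other 6 libraries.

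Between E14.5 and ISC, 8 of the 25 bins (32%) lost covered length and none gained it. Over all bins, 16.2% lost and 14.2% gained. Unadjusted, limma put 9 Hox bins below 0.05 as lost and 0 as gained, and the share over all bins was not computed for this. The median log2 change was -0.49 over the Hox bins and 0 over all bins. The calls were 4 in HoxA, 3 in HoxB, 0 in HoxC and 1 in HoxD. Without E14.5 replicate 1 the count was 3 of 25 (8.01% of all bins lost). Without ISC replicate 1 it was 5 of 25 (20%, against 4973 of 39697 bins in all), and 1 of 25 gained (4%, against 13.9% of all bins). Without enterocytes replicate 1 or replicate 2 it was 5 of 24 (14.2% of all bins in either case).

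The bin with the most covered length in HoxA at E12.5 was also the HoxA bin that changed most from E14.5 to ISC. In chr6:52125001-52135000, peaks covered 8.24 and 9.16 kb in the E12.5 pair, 4.43 and 2.63 kb in the E14.5 pair, 0 and 0.598 kb in ISC, and 0 kb in both enterocyte libraries. From E14.5 to ISC the log2 change was -2.41 (limma adjusted p = 0.00740), and without E14.5 replicate 1 the adjusted p was 0.0535. The bin chr6:52105001-52115000 was covered over 5.60 and 6.27 kb in the E12.5 pair, 3.59 and 2.69 kb in the E14.5 pair, 0.451 and 0.540 kb in the ISC pair, and 0 kb in enterocytes. Each group of this bin lay below the one before it. Its log2 change from E14.5 to ISC was -1.86 (limma adjusted p = 0.000749).

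In HoxB the bins that fell from E14.5 to ISC lay toward the Hoxb1 end. The bin chr11:96205001-96215000 was covered over 4.56 and 6.50 kb in the E12.5 pair, 4.83 and 4.24 kb in the E14.5 pair, 0 and 0.803 kb in the ISC pair, and 0 kb in enterocytes. Its log2 change was -2.64 (limma adjusted p = 0.00769, and 0.0562 without E14.5 replicate 1). The next bin, chr11:96215001-96225000, held 1.54 and 1.51 kb in the E14.5 pair and 0 kb in all adult libraries (log2 change -2.02, limma adjusted p = 0.000412). The 2 embryonic stages were close to each other in both bins, and both lay above the adult libraries.

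In HoxD, chr2:74550001-74560000 was covered over 2.33 and 4.87 kb in the E12.5 pair, 3.66 and 1.33 kb in the E14.5 pair, 0 and 0.319 kb in the ISC pair, and 0 kb in enterocytes. The log2 change from E14.5 to ISC was -2.11 (limma adjusted p = 0.0265). The call was kept in 8 of 14 alternatives, and the adjusted p was 0.123 without E14.5 replicate 1, 0.119 without ISC replicate 1 and 0.0518 without ISC replicate 2. Without enterocytes replicate 1 or replicate 2 it was 0.0502.

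Between ISC and enterocytes, 3 of the 25 bins (12%) lost covered length and 1 (4%) gained it. Over all bins, 30.9% lost and 5.44% gained. The median log2 change was 0 over the Hox bins and -0.35 over all bins. No ISC library had a peak in 13 of the 25 Hox bins. Without ISC replicate 1, 11 of the 25 Hox bins (44%) lost covered length, against 34.3% of all bins, so the Hox share lay below that of all bins with this library and above it without. Without enterocytes replicate 1 or replicate 2 no Hox bin gained, because the gaining bin had a peak in 1 library and was not tested.

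The falls lay in HoxA and HoxB. In chr6:52135001-52145000, peaks covered 4.86 and 5.96 kb in the E12.5 pair, 2.31 and 1.69 kb in the E14.5 pair, 1.08 and 1.95 kb in the ISC pair, and 0.226 and 0 kb in enterocytes (log2 change from ISC -1.71, limma adjusted p = 0.00826). This was the one HoxA bin in which an enterocyte library held a peak. In chr6:52105001-52115000 the log2 change was -0.99 (limma adjusted p = 0.00611). In HoxB, chr11:96175001-96185000 was covered over 3.84 and 5.87 kb in the E12.5 pair, 4.24 and 3.22 kb in the E14.5 pair, 1.45 and 4.64 kb in the ISC pair, and 0 kb in enterocytes (log2 change from ISC -2.66, limma adjusted p = 0.00851). ISC replicate 2 was inside the embryonic range in this bin and ISC replicate 1 below it.

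The bin that gained was chr11:96045001-96055000, at the Hoxb13 end of HoxB. It held 0 kb in the 6 embryonic and ISC libraries and 0.256 and 0.296 kb in the enterocytes, and so passed the filter through the enterocytes alone. These were the peaks at chr11:96048404-96048659 and chr11:96048429-96048724. Both were weak, at percentiles 26.8 and 15.9 of −log10 q in their own lists. They were the only Hox peaks of enterocyte replicate 2 and 1 of 2 of enterocyte replicate 1.

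Between the embryonic and adult libraries, 20 of the 25 bins (80%) had less covered length and 1 (4%) had more. Over all bins, 38.6% had less and 22.3% had more. The median log2 change was -1.50 over the Hox bins and -0.25 over all bins. All 7 HoxA bins tested, both HoxC bins and all 5 HoxD bins had less, as did 6 of the 11 HoxB bins. The bin with more was the Hoxb13-end bin of the enterocytes. It and 4 of the 20 with less were bins that passed the filter through 1 group alone. No adult library had a peak in chr6:52115001-52125000, chr6:52165001-52175000, chr11:96185001-96195000, chr11:96215001-96225000, chr11:96225001-96235000, chr2:74540001-74550000, chr2:74560001-74570000 or chr2:74570001-74580000 either. These bins with less passed the filter through embryonic libraries alone. In chr6:52125001-52135000, chr11:96195001-96205000, chr11:96205001-96215000 and chr2:74550001-74560000, 1 adult library had a peak, so these too passed only with the embryonic libraries. The remaining bins with less were chr6:52105001-52115000, chr6:52135001-52145000, chr6:52145001-52155000 and chr11:96175001-96185000. The count with less is thus largely set by the filter. Without ISC replicate 1 the count with more was 2 of 25 (8%, against 21.7% of all bins). Without enterocytes replicate 1 or replicate 2 it was 0 of 24 (16.7 and 17.3% of all bins).

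Among the largest changes, 4 of the 6 given here were in bins described above. In HoxA they were -3.30 in chr6:52125001-52135000 and -2.77 in chr6:52105001-52115000 (limma adjusted p = 5.67e-05). In HoxB they were -3.11 in chr11:96205001-96215000 and -2.88 in chr11:96195001-96205000. In HoxD they were -2.54 in chr2:74550001-74560000 and -1.94 in chr2:74570001-74580000. Apart from chr6:52105001-52115000 they are given with no p, because fewer than 2 adult libraries had a peak in them. Those bins passed the filter only with the embryonic libraries. Peaks in chr11:96195001-96205000 covered 5.91 and 7.84 kb in the E12.5 pair, 3.42 and 2.14 kb in the E14.5 pair, 0 and 1.02 kb in the ISC pair, and 0 kb in enterocytes. In chr2:74570001-74580000 they covered 1.72 and 4.65 kb in the E12.5 pair, 1.01 and 0.276 kb in the E14.5 pair and 0 kb in the adult libraries. In these 6 bins every adult library lay below every embryonic one, ISC replicate 2 included. The HoxC bins had no such separation, because their E14.5 libraries were at 0.

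**Figure D3:**
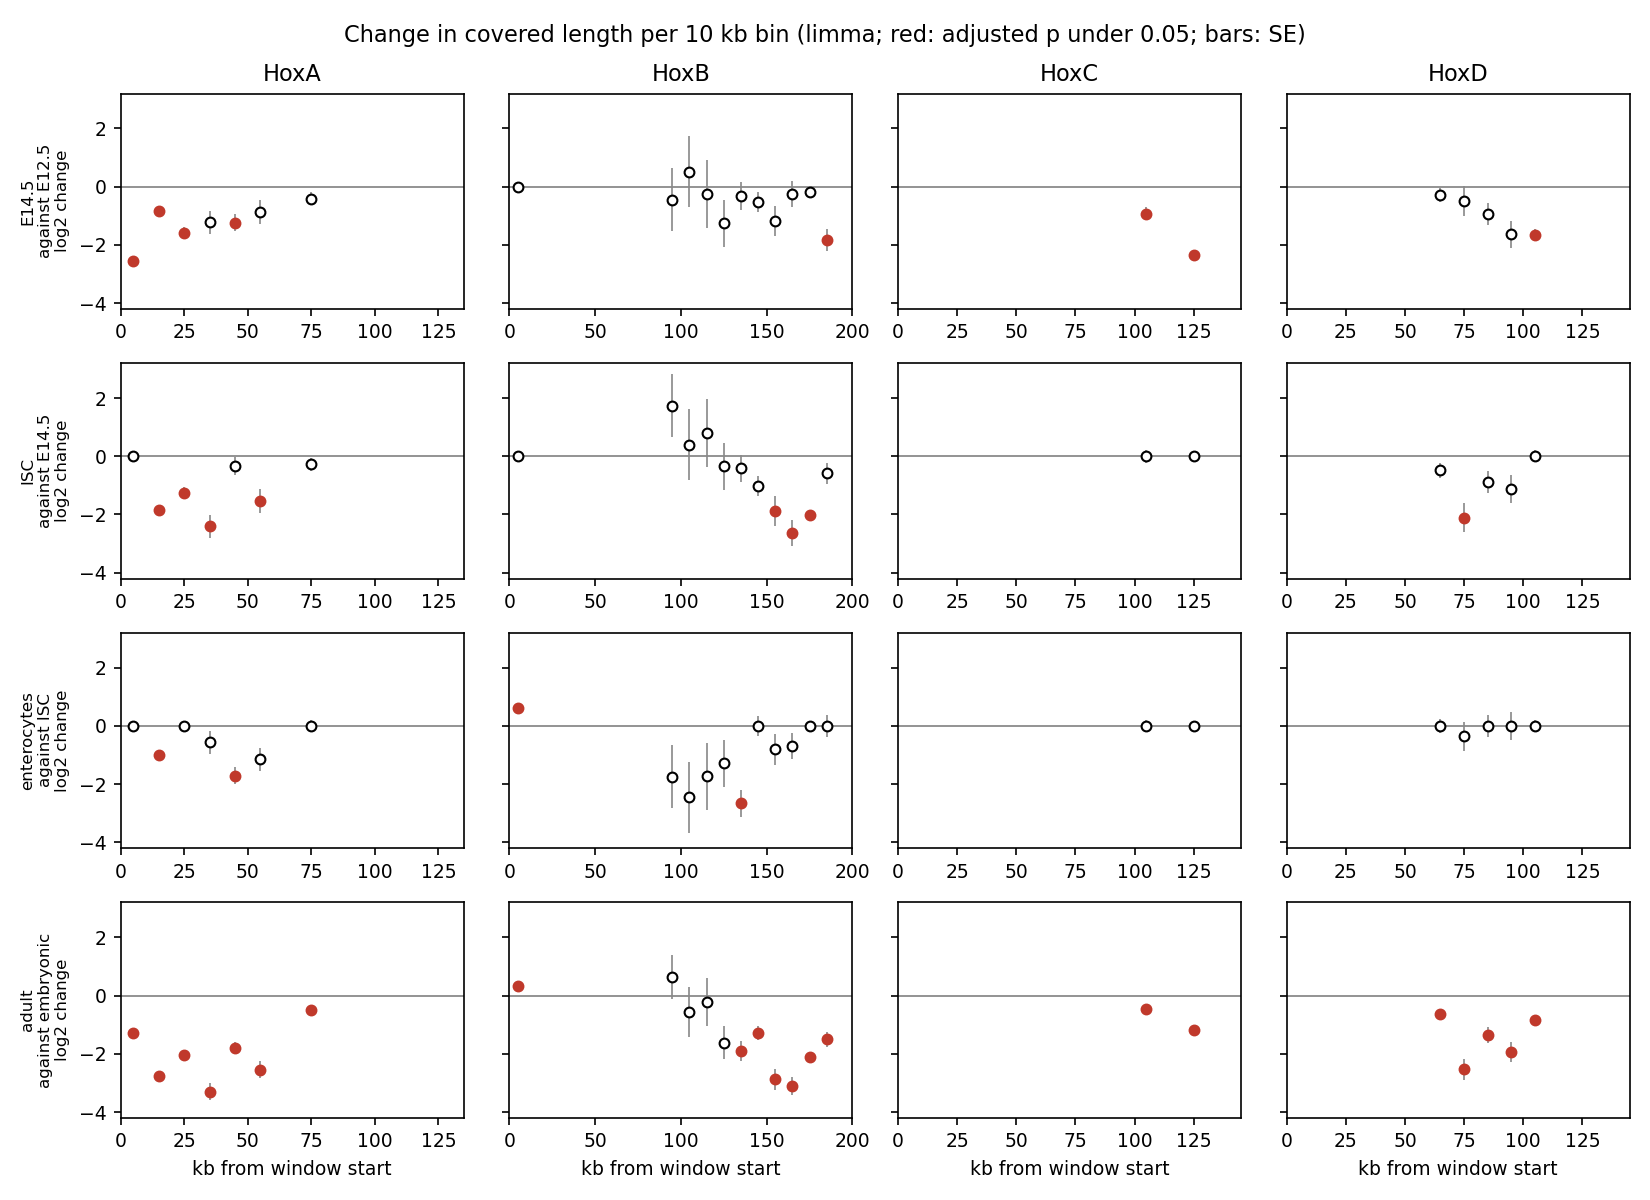
Change in covered length (y axis, difference of log2(covered bp + 500)) for each tested bin along the 4 windows (x axis, kb from the window start) in the 4 comparisons (rows), with bars for the SE and filled red points for limma adjusted p under 0.05. Called bins lay below 0 except the HoxB bin at the Hoxb13 end, which had peaks in enterocytes alone and lay above 0 in enterocytes against ISC and in adult against embryonic libraries.

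The same steps were also read from single regions, without the division into bins. Overlapping or adjoining peaks of the compared libraries were joined into regions, and a region counted as lost when both libraries of the earlier group and neither of the later had it. From E12.5 to E14.5, 17 of 78 Hox regions (21.8%) were lost and 0 gained, against 5.84% lost and 12.45% gained over all regions. The longest were chr6:52102175-52104754 in HoxA, chr11:96224702-96225927 in HoxB, chr15:102864456-102865756 in HoxC and chr2:74578172-74579181 in HoxD. These 4 were 2580, 1226, 1301 and 1010 bp long. Region counts with a library left out, here and below, were not computed over all regions. Leaving a library out relaxes the rule for every region, so those counts show only how the Hox counts depend on single libraries. The count lost was 42 without E12.5 replicate 1 and 36 without E12.5 replicate 2, where 1 library stands for the group. The count gained was 1 without E12.5 replicate 2, 2 without E14.5 replicate 1 and 4 without E14.5 replicate 2.

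From E14.5 to ISC, 9 of 67 Hox regions (13.4%) were lost and 0 gained, against 13.5% and 9.63% over all regions. The Hox share lost was thus at the background. The longest lost were chr6:52125136-52126650, chr11:96193974-96194934 and chr2:74558835-74559878. Without ISC replicate 2 the count lost was 19, without E14.5 replicate 2 it was 29, and without ISC replicate 1 there were 21 gained. From ISC to enterocytes, 6 of 44 (13.6%) were lost and 1 (2.27%) gained, against 18.3% and 5.65% over all regions. The longest lost were chr6:52140513-52141716 and chr11:96153928-96157672, and the 1 gained was chr11:96048404-96048724. Without ISC replicate 1 the count lost was 42.

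From all embryonic to all adult libraries, 4 of 87 Hox regions (4.60%) were lost and 0 gained, against 5.08% and 1.95% over all regions. The longest was chr6:52121991-52130335 in HoxA, 8345 bp when merged, in which peaks covered 6876 and 8249 bp in the E12.5 pair, 2843 and 1965 bp in the E14.5 pair and 0 bp in the adult libraries. The other 3 were in HoxD, and chr2:74558237-74559923 was the longest of them. Without E12.5 replicate 2 the count lost was 8, without E14.5 replicate 2 it was 10, and without ISC replicate 2 it was 14.

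Over the 8 libraries the Hox peaks merged into 87 regions, 14 in HoxA, 46 in HoxB, 9 in HoxC and 18 in HoxD. Of these, 67 (77.0%) had a peak in E12.5, 31 (35.6%) in E14.5, 38 (43.7%) in ISC and 2 (2.30%) in enterocytes. Over the 79482 regions of the genome the shares were 53.6%, 54.3%, 57.5% and 37.4%. Without ISC replicate 2, 70 Hox regions were left and 6 of them (8.57%) had a peak in ISC, against 42.0% of the 70226 regions then left in the genome. Regions with peaks in embryonic libraries alone numbered 48 (55.2%), against 32.5% over the genome. Without ISC replicate 2 they numbered 63 of 70 (90%), against 43.0%. Those with peaks in both E12.5 libraries and none of the later 6 numbered 17 (19.5%), against 4.06%. With all libraries, the 9 HoxC regions and 17 of the 18 HoxD regions were embryonic only. HoxA had 8 of 14 such regions and HoxB 14 of 46.

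Regions held by both libraries of E12.5, E14.5 and ISC alike numbered 6, and 5 of them had no enterocyte peak. The one that also had an enterocyte peak was chr6:52141875-52146240 in HoxA. Peaks in it covered 3133 and 4320 bp in the E12.5 pair, 974 and 867 bp in the E14.5 pair, 371 and 745 bp in ISC, and 226 and 0 bp in enterocytes. A peak was present there in 7 of the 8 libraries, and each later group had less of it covered.

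In HoxA the later peaks lay inside the earlier ones. The share of covered length that fell within E12.5 peaks was 99.9% and 100% in the E14.5 libraries. Both ISC libraries and the 1 enterocyte peak lay wholly within peaks of the earlier groups. Over the 6 later libraries, 16 bp of HoxA peaks in all lay outside the peaks of earlier groups. In HoxD the share was 92.0% and 99.3% at E14.5 and 100% for the 1 ISC peak. In HoxB it was 86.4% and 93.8% at E14.5, 96.5% in ISC replicate 1, 35.2% in ISC replicate 2 and 0% in both enterocyte libraries.

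**Figure D4:**
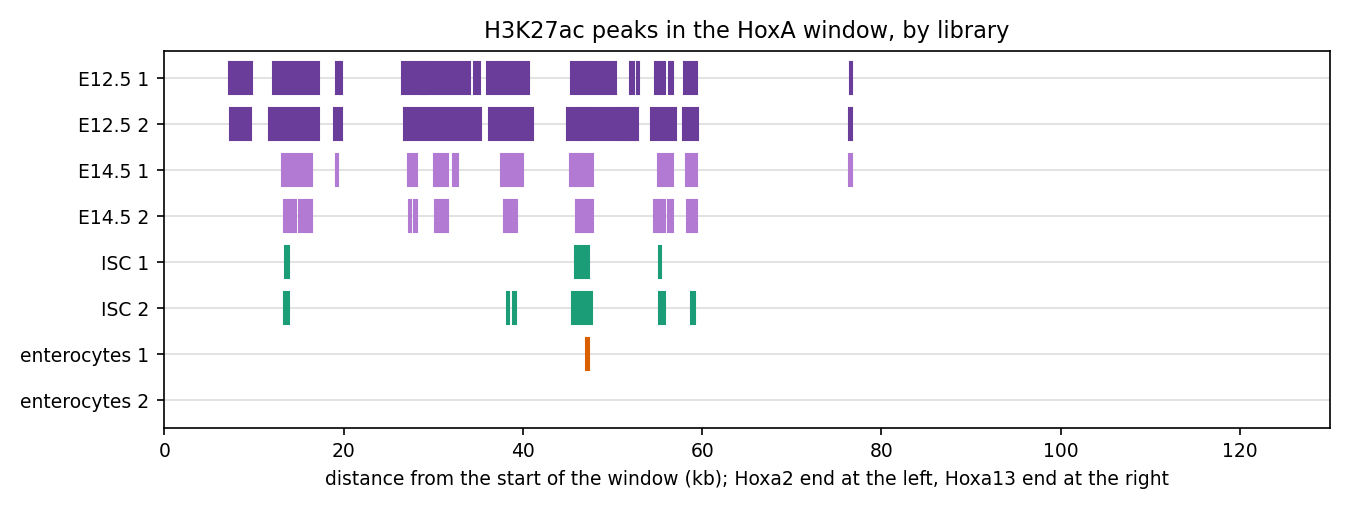
H3K27ac peaks (bars, to scale) along the HoxA window (x axis, kb from the window start) in the 8 libraries. Peaks of 5068 and 8249 bp at E12.5 were the longest of that stage, the later peaks lay within stretches covered in earlier groups apart from 16 bp, and the last was one of 226 bp in enterocyte replicate 1, and no library had a peak in the last 53.3 kb.

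The longest HoxA peaks were those of E12.5. In HoxA the longest peak of each library measured 5068 and 8249 bp in the E12.5 pair, 2498 and 1437 bp in the E14.5 pair, 473 and 1204 bp in ISC, and 226 bp in enterocyte replicate 1. The 8249 bp peak was chr6:52122087-52130335, at percentile 93.7 of −log10 q in its list. In HoxB the longest embryonic peak lay at one place in all 4 libraries, with 4319 and 4698 bp at E12.5 and 3611 and 4360 bp at E14.5, all between 96211910 and 96216607. The longest in ISC lay elsewhere, with 806 bp at chr11:96181022-96181827 in replicate 1 and 3745 bp at chr11:96153928-96157672 in replicate 2. HoxC reached 1083 and 1301 bp at E12.5. HoxD reached 1104 and 1711 bp in the E12.5 pair, 1040 and 842 bp in the E14.5 pair and 319 bp in ISC replicate 2.

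The Hox peaks were of middling or low rank by −log10 q, which is the authors' value and was used within each list. Their median percentile was 33.2 and 43.1 at E12.5, 32.1 and 30.9 at E14.5, 49.3 and 33.5 in the ISC pair, and 14.7 and 15.9 in enterocytes. Peaks above the 90th percentile of their list numbered 2 and 4 at E12.5 and 0 in the 6 later libraries. The HoxA peaks ranked higher than this, with medians of 63.1 and 66.6 at E12.5 and 56.3 and 53.1 at E14.5. Peaks with −log10 q of at least 10 numbered 28 of 73 and 31 of 76 at E12.5, and 22 of 55 and 14 of 31 at E14.5. They numbered 5 of 8 and 19 of 43 in the ISC pair, and 0 of 2 and 0 of 1 in enterocytes. Over all peaks of a list the share was 50.3 to 59.2%. The enterocyte libraries thus held no strong Hox peak, but they held only 2 and 1 Hox peaks.

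The HoxB peaks of ISC replicate 2 were spread over a part of the cluster that was empty elsewhere. Between 96112766 and 96138749, a stretch of 26.0 kb toward Hoxb13, this library had 12 peaks that covered 14.7 kb, and the other 7 libraries had none. The stretch was cut from the first region of this library alone to the base before the first embryonic peak. The absence of embryonic peaks in it was thus fixed by the cut. Their percentiles of −log10 q ran from 8.39 to 63.7 with a median of 39.7. Over the whole of HoxB, 17 merged regions were found in this library alone, which is 19.5% of the 87 Hox regions, against 11.6% of the regions of the genome. They were 221 to 2804 bp long and summed to 18.1 kb. No such region was found in HoxA, HoxC or HoxD.

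The same library was closer to its partner in HoxA. There the ISC pair held 1.79 and 4.21 kb, with a Jaccard index of 0.420. In HoxD the pair held 0 and 0.319 kb, with a Jaccard index of 0, and in HoxC both held 0. Within HoxB, ISC replicate 2 was above the embryonic range in chr11:96145001-96155000 and chr11:96155001-96165000, with 7.89 and 5.04 kb. It fell below that range toward Hoxb1, with 1.02 kb in chr11:96195001-96205000 and 0.803 kb in chr11:96205001-96215000. What set this library apart was not tested, and the part of its larger total covered length in it was not tested.

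**Figure D5:**
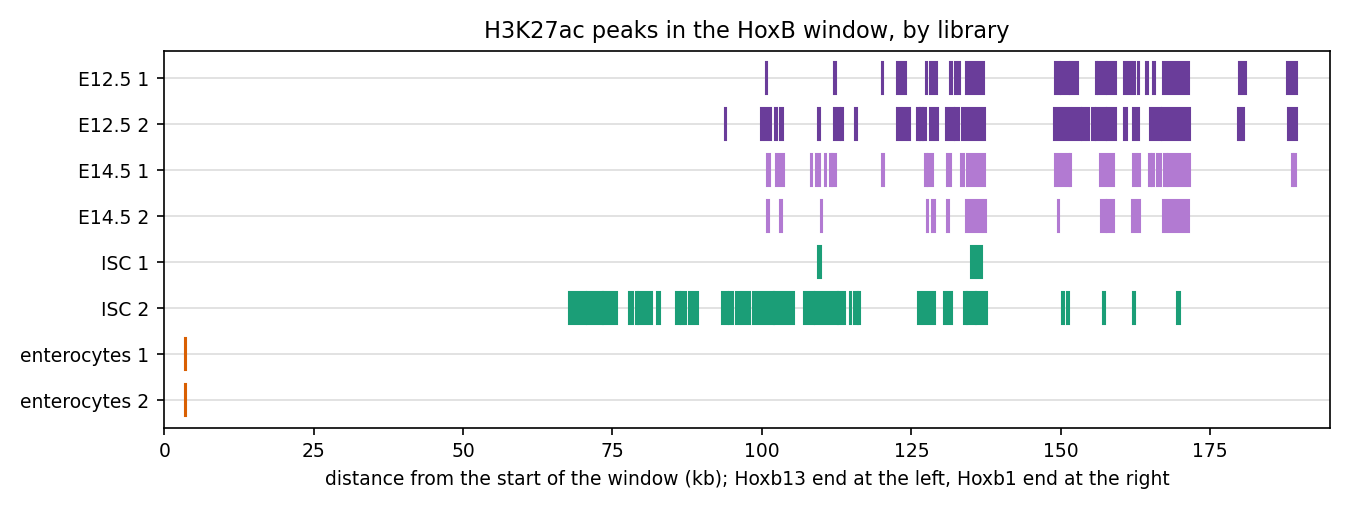
H3K27ac peaks (bars, to scale) along the HoxB window (x axis, kb from the window start) in the 8 libraries. ISC replicate 2 had 12 peaks in a stretch where the other 7 libraries had none, and the stretch was cut to end before the first embryonic peak. The enterocyte libraries had 1 peak each, at the Hoxb13 end.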

How the data were processed

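H3K27ac was measured by chromatin immunoprecipitation and sequencing in 8 libraries, each with its own input library. The tools named in the submitters' processing notes are Bowtie 1.1.2, SAMtools 1.2, bcl2fastq 1.8.4 and MACS2, with the mm9 build. Per the file headers, MACS 2.1.0.20140616 called narrow peaks in each library separately against its input, at a q-value of 0.05, with tags of 51 bp. The larger data set was scaled down and 1 tag was kept at each position, per the file headers. Each deposited list gives the position of a peak, its pileup as a coverage signal, the −log10 of its p and q values, and a fold enrichment ratio over the local background. These deposited values are the authors' and were compared between peaks of the same list and nowhere else. The inputs held 35.0 to 38.8 M tags and enter only through the peak calls.

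Covered length was computed per window and per 10 kb bin on a grid that starts at each window, with Python 3.11.15, pandas 2.3.3 and scipy 1.17.1. Covered length was left unscaled, since scaling moves bins that are covered from end to end. Bins were tested with limma 3.58.1 in R 4.3.3, with a trended and robust prior, and p-values were adjusted by Benjamini-Hochberg over 41727 bins. The script was tested on simulated data.

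The bins named are, in each comparison and cluster, the 2 called bins that changed most in either direction, taken where the groups do not overlap. The regions named are the longest gained and lost, and the longest peak of each library is given. The members and lists were chosen with earlier results of these data known. Gene positions on mm9 were not used here, so the planned checks of marker genes were left out. Replicate numbers come from the labels, and same-numbered libraries of the groups did not deviate together (correlations -0.165 to 0.0203 over bins), so they were not treated as pairs. Alternatives were other pseudocounts, filters, scalings, windows and merging rules, and the omission of each library in turn.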

Additional observations from a re-analysis of the deposited data

Results flagged for a closer look

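Among the 4 adult libraries, ISC replicate 2 stood far above the others in HoxB, with 41.3 kb covered against 1.85 kb in ISC replicate 1 and 0.256 and 0.296 kb in enterocytes. In HoxD the same library, with 0.319 kb, was the 1 adult library with a peak, and the other 3 were at 0. In HoxB the gap to the nearest library was large for a group of 4. For 4 values from one population, chance marks about 1 in 20 such groups, and 7 groups were examined. The 4 adult libraries are of 2 cell types, so the rate need not hold in HoxB. That rate does not apply in HoxD, where the other 3 libraries are tied at 0 and a single peak of any size would be marked. In HoxA this library held 4.21 kb and was not marked. The cause was not tested.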

How the results depend on the processing

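Of 242 values of 20 results recomputed under the alternatives, 204 kept their direction and side of the threshold (for counts, stayed within 1.5 times), 3 passed the threshold, 35 moved and 0 reversed. The 204 include the cluster differences with a library left out. There 4 against 3 allows no exact permutation p under 0.0571, so only their direction could change. Apart from the bins with peaks in 1 group alone, 16 named bin changes kept their direction in all 223 recomputed values and their call in 211. Some of the 16 passed the filter only with the side in which they were high, so their direction and call are partly set by it. With windows widened by 20 kb, the adult minus embryonic difference passed the threshold in HoxA (-21.0 kb), HoxC (-5.01 kb) and HoxD (-6.73 kb). Of these, only HoxC changed in its unadjusted p, and HoxA and HoxD passed through the adjustment alone. With only peaks of −log10 q of at least 10, 0 of 17 Hox bins rose in enterocytes against ISC (4.35% of all bins). In adult against embryonic libraries 0 of 17 rose (21.1% of all bins). The regions lost at E14.5 then numbered 4 and those gained in enterocytes 0. With peaks merged within 1 kb, 7 regions were lost at E14.5, 4 in ISC and 2 in adult libraries. Requiring 50% of a region to be covered gave 14 lost in ISC and 2 lost in enterocytes. Leaving out each library in turn left 20 to 25 Hox bins tested, and the share of all bins called is in brackets below. At E14.5, 1 to 10 Hox bins fell (1.36 to 6.75%). In ISC 3 to 9 fell (8.01 to 19.3%) and 0 to 1 rose (6.91 to 14.3%). In enterocytes 3 to 11 fell (15.9 to 34.3%) and 0 to 1 rose (1.49 to 7.09%). In adult libraries 15 to 18 fell (28.4 to 42.4%) and 0 to 2 rose (16.7 to 21.7%). For regions, leaving out each library gave 17 to 42 lost and 0 to 4 gained at E14.5, and 9 to 29 lost and 0 to 21 gained in ISC. It gave 6 to 42 regions lost in enterocytes and 4 to 14 lost in adult libraries. The cause was not tested, except that a region needs fewer libraries to be called when 1 is left out. For regions, the share over all regions was not computed under these alternatives.

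With the replicate number as a block, 6, 7, 4 and 18 of 25 Hox bins fell at E14.5, in ISC, in enterocytes and in adult libraries. These were 24, 28, 16 and 72% of the Hox bins, against 5.62, 15.3, 29.9 and 37.8% of all bins. In the same order 0, 0, 1 and 1 rose, against 10.5, 13.2, 5.09 and 21.7% of all bins. The labels share only a number, and with the E14.5 numbers crossed, an alternative chosen after seeing the data, 9 bins fell and 0 rose at E14.5. The share over all bins was not computed with the numbers crossed. A fit over all bins without a filter was not run, because the variance trend could not be fitted. It was replaced, after seeing the data, by bins with a peak in at least 1 library. Depth per region is not in the peak lists, so a bin at 0 is one where no peak passed the authors' threshold.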
